A study of Mus musculus with 21 samples.

Results

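This account covers 45 genes whose products copy the genome in S phase, or supply and license that copying, among the 23713 genes of a count table from bulk RNA sequencing of mouse tail keratinocytes. The members were chosen by name as a panel of DNA replication genes, and all 45 were found in the table and passed the filter on low counts in every comparison. Keratinocytes, the epithelial cells of the epidermis, were isolated by trypsin and dispase from tail skin of mice with basal cell carcinoma (BCC), a Hedgehog-driven skin tumour, and of tumour-free controls (Con). Each of 3 models contributed 3 Con and 4 BCC libraries. SmoM2, an activated form of the Hedgehog receptor component Smoothened, was sampled 29 days after tumour induction and formed batch A. Gnas-eKO, whose name stands for loss of Gnas, the stimulatory G protein subunit that raises cAMP, was sampled at 42 days and formed batch B. PKI, the name of a protein kinase A inhibitor, was sampled at 57 days and formed batch C. Model, batch and day therefore cannot be told apart, and BCC was compared with Con only within a model. The labels give no driver, construct, strain, sex or age for any model or its controls, and do not say how many mice entered a library or whether libraries came from separate mice. P-values therefore measure the spread between these libraries. The SmoM2 BCC columns carry another name prefix than the SmoM2 Con columns, which share theirs with Gnas-eKO, and what it stands for is not stated.

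Replication is licensed in G1, when the origin recognition complex (Orc1, Orc6), Cdc6 and Cdt1 load the MCM2-7 helicase onto DNA. At the entry to S phase, cyclin E and E2F transcription factors drive the expression and firing of this machinery, Mcm10, Cdc45 and the GINS complex activate the helicase, and polymerases alpha, delta and epsilon copy the strands with the sliding clamp Pcna and its loader. In normal epidermis these genes are used mainly by basal keratinocytes and by the matrix cells of growing hair follicles. Because the measurement is of bulk RNA, a smaller share of cycling cells and less RNA per cycling cell cannot be told apart in any value that follows.

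The libraries held 16645858 to 22251132 counts. On the first principal component of all genes, which held 30.2% of the variance, Gnas-eKO BCC replicate 2 lay at −20.4, between the 9 Con libraries (−57.2 to −40.4) and the other 11 BCC libraries (32.4 to 59.4), so the members' counts of calls, median and mean difference in Gnas-eKO are given with and without it, and single genes where leaving it out changes the call. Of the altered genes, Smo had a log2 fold change of 1.55 in SmoM2 BCC (edgeR BH-adjusted p 1.13e-06), and Gnas had a log2 fold change of −1.11 in Gnas-eKO BCC (edgeR BH-adjusted p 0.0647, above the threshold). Pkia had −0.62 in PKI BCC (edgeR BH-adjusted p 0.0956), but reads of a PKI construct need not count under Pkia, so this does not check the label. All 8 basal and all 8 suprabasal keratinocyte markers were detected in every group, with summed basal levels of 16687 to 40341 CPM (counts as a share of each library's total, scaled by TMM) over the 21 libraries.

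The DNA replication genes were higher in PKI tumours, close to their controls in SmoM2 tumours and mostly lower, without a call, in Gnas-eKO tumours. In PKI, 31 of 45 members rose past an edgeR p of 0.05 adjusted by Benjamini-Hochberg (BH) and 0 fell, and among the 31 were all 6 MCM2-7 subunits and all 5 genes of deoxynucleotide supply. Of all 16397 genes tested there, 18.7% were called higher and 15.8% lower. At an unadjusted p under 0.05, 38 members were higher and 1 lower (edgeR), and the DESeq2 Wald test called 33 higher and 1 lower, beside 23.7% and 21.0% of all genes at the unadjusted p and 19.9% and 17.3% by DESeq2. In SmoM2, 3 members rose (Rfc2, Pola1 and Mcm7) and 3 fell (Tk1, Rrm2 and Pcna), where 16.2% and 13.5% of 16370 genes were called higher and lower. The SmoM2 shares of members called were thus below those of all genes in both directions. Without Con replicate 1, 11 members were called higher in SmoM2, the added ones being Orc1, Mcm6, Pole, Lig1, Dut, Chaf1a, Chaf1b and Tipin, beside 14.7% of all genes. In Gnas-eKO, 0 members were called in either direction, against 1.46% of 16409 genes called higher and 0.165% lower, while 0 members were higher and 10 lower at an unadjusted p under 0.05 (edgeR), beside 12.2% and 7.34% of all genes. DESeq2 called 0 members higher and 3 lower there, namely Rrm2, Tk1 and Cdca7, beside 6.79% and 2.57% of all genes. Without BCC replicate 2, edgeR called the same 3 genes lower, beside 4.43% of all genes. A joint edgeR fit of all 21 libraries called 8 lower, these 3 with Mcm6, Cdc45, Rfc5, Rrm1 and E2f1, beside 6.05% of all genes.

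The median log2 fold change over the 45 members was 0.49 in PKI, −0.21 in Gnas-eKO and 0.14 in SmoM2, beside 0.00, 0.02 and 0.00 over all genes tested. The Gnas-eKO median was −0.28 without BCC replicate 2 and −0.093 without Con replicate 2, and the SmoM2 median was 0.27 without Con replicate 1 and 0.049 without Con replicate 3. In PKI 43 members had a positive value, in SmoM2 28 and in Gnas-eKO 4. Every BCC library lay above every Con library for 34 members in PKI and for 3 in SmoM2, and for 0 in Gnas-eKO, beside 22.4%, 19.6% and 9.98% of all genes. The reverse held for 1 member in PKI, 4 in SmoM2 and 10 in Gnas-eKO, beside 20.8%, 19.2% and 9.7%. Rfc2, Mcm7 and Gins1 were the 3 members with positive values in all 3 models, and Cdca7 was the 1 member with negative values in all 3. In Gnas-eKO, however, Mcm7 was flat, at 0.0091 with a mean of 68.5 CPM in both groups. Gins1 had 0.10 there and turned negative without Con replicate 3 or BCC replicate 3. For 25 members the value was positive in SmoM2 and PKI and negative in Gnas-eKO, and for 15 it was positive in PKI alone. Orc6 had a positive value in Gnas-eKO alone.

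**Figure D1:**
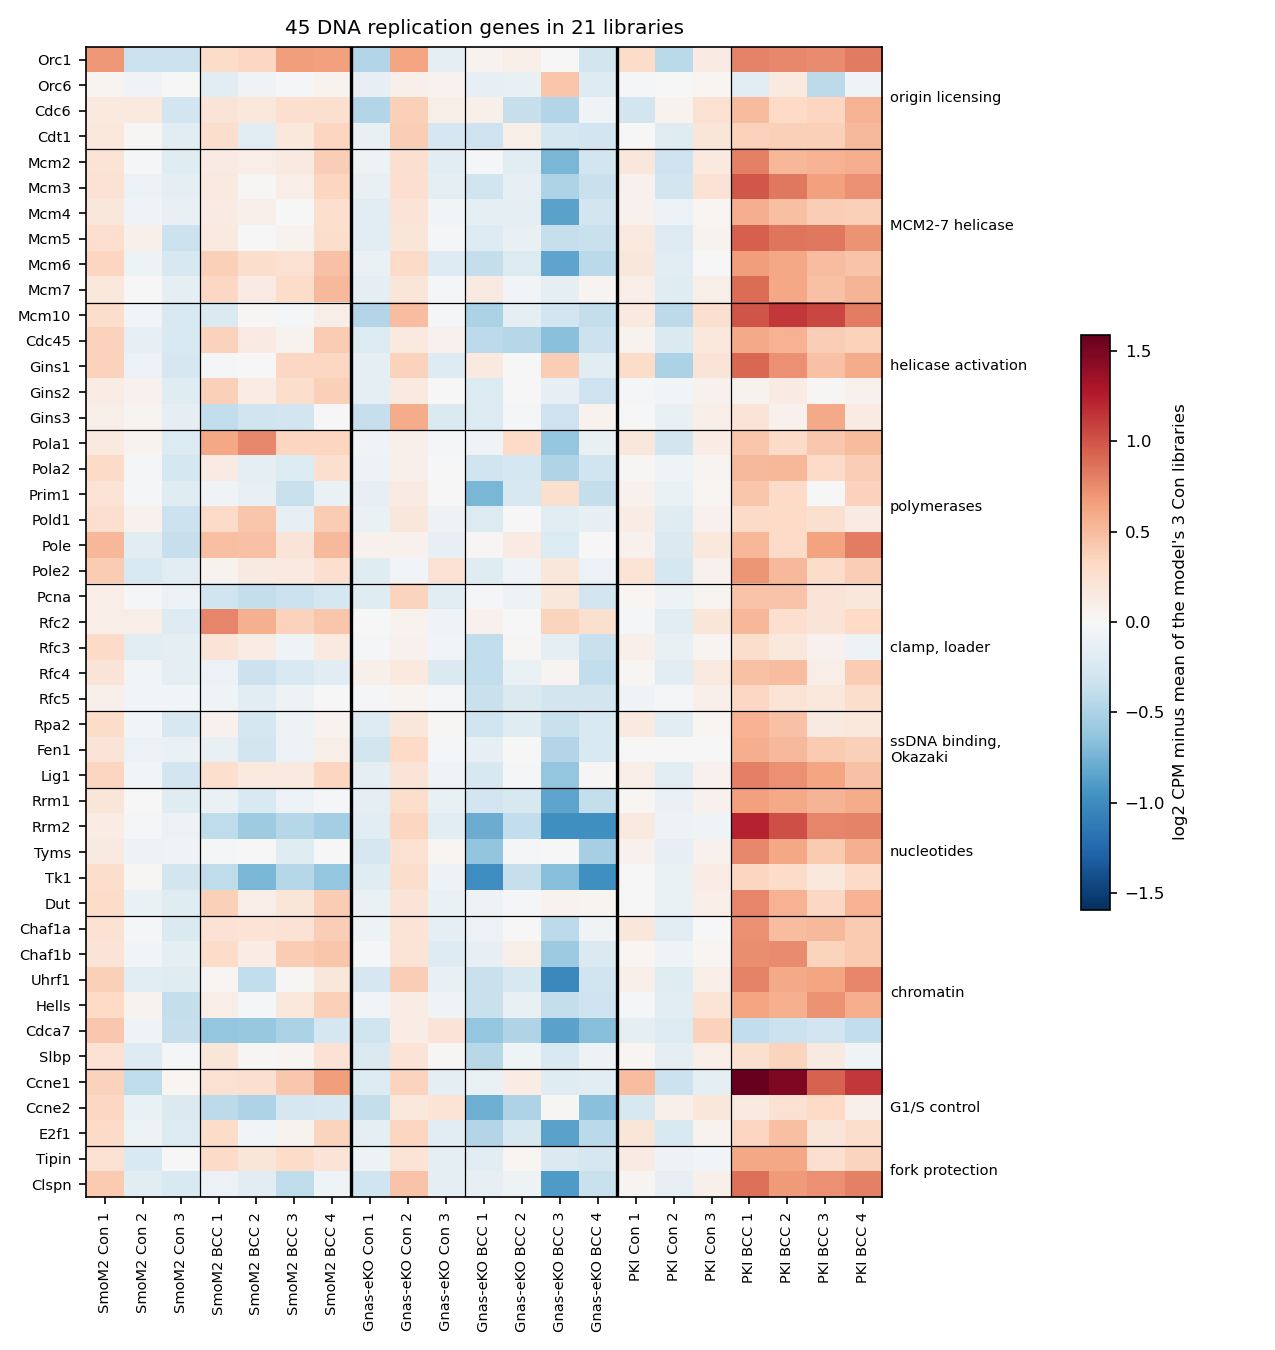
Heat map of log2 CPM of the 45 DNA replication genes (rows, grouped by role) in the 21 libraries (columns), each value minus the mean of the same model's 3 Con libraries. The 4 PKI BCC columns are red in most rows, with the deepest red for Ccne1, while Rrm2, Tk1 and Cdca7 are blue in the SmoM2 and Gnas-eKO BCC columns.

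As a mean over the 45 members, log2 CPM was 4.68, 4.44 and 4.70 in the 3 PKI Con libraries and 5.19, 5.11, 5.00 and 5.03 in the 4 PKI BCC libraries. All BCC libraries lay above all Con libraries, with means of 4.61 ± 0.15 (SD, n = 3) and 5.08 ± 0.09 (SD, n = 4) and a difference of 0.47. In SmoM2 the means per library were 5.04, 4.72 and 4.59 in Con and 4.88, 4.77, 4.81 and 4.97 in BCC. The SmoM2 groups overlapped, Con replicate 1 being the highest of the 7, and the difference of 0.08 became −0.02 without Con replicate 3 and 0.205 without Con replicate 1. Gnas-eKO gave 4.78, 5.19 and 4.89 in Con and 4.68, 4.84, 4.62 and 4.67 in BCC, a difference of −0.25. There the groups also overlapped, since BCC replicate 2 lay above Con replicate 1, and Con replicate 2 stood highest of all 21 libraries. Without BCC replicate 2 the groups did not overlap and the difference was −0.296, while without Con replicate 2 it was −0.132. As the members were chosen with results known, the mean was given no test.

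**Figure D2:**
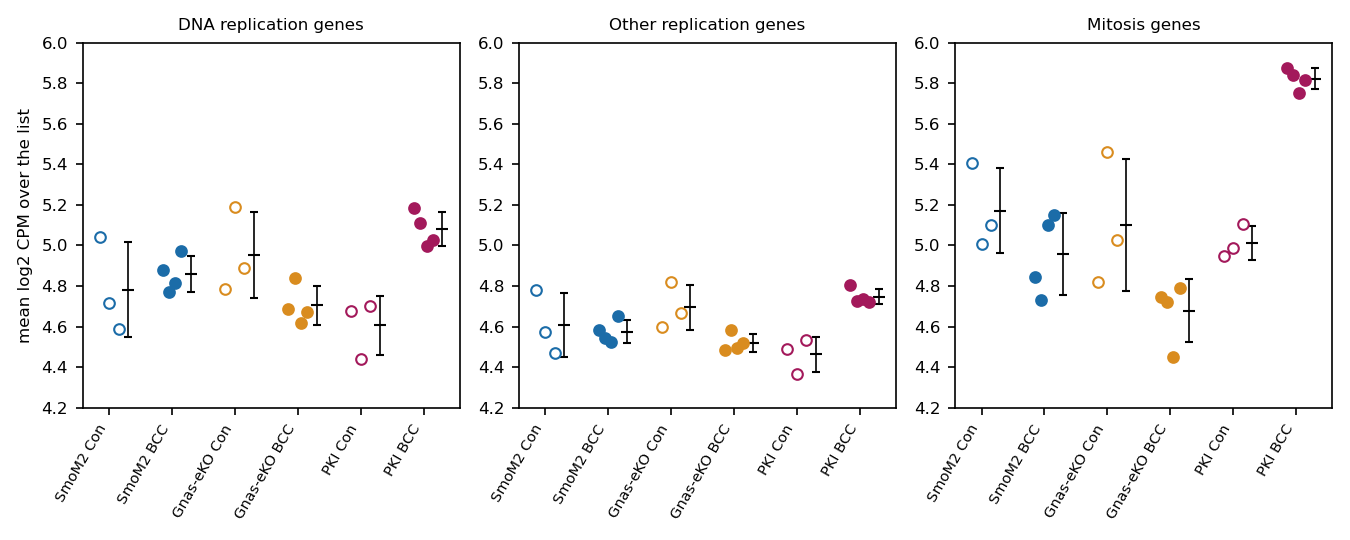
Mean log2 CPM per library over the 45 DNA replication genes, 45 other replication genes and 25 mitosis genes, with open circles for Con, filled circles for BCC and a bar for the group mean ± SD beside them. PKI BCC lies above PKI Con in each panel, and the gap is 0.47 for the DNA replication genes and 0.81 for the mitosis genes.

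Markers of other cell types moved with some of these groups. The summed level of the leukocyte list, 13 of whose 15 genes were in the table, was 47.1 to 120 CPM in PKI Con and 259 to 486 CPM in PKI BCC, where 9 of the 11 leukocyte genes tested were called higher and 0 lower (edgeR, also 0 lower at an unadjusted p under 0.05). It was 75.9 to 92.5 and 51.2 to 105 CPM in SmoM2, and 96.2 to 123 and 81.0 to 241 CPM in Gnas-eKO. The sum over 8 basal keratinocyte genes was 31248 to 40341, 36729 to 39973 and 35055 to 40065 CPM in SmoM2, Gnas-eKO and PKI Con, and 23456 to 25361, 16687 to 33763 and 29604 to 32148 CPM in the BCC libraries of the same models. Of these 8 genes, edgeR called 0 higher and 5 lower in PKI, 1 higher and 5 lower in SmoM2, and 0 in Gnas-eKO. The sum over 6 fibroblast genes was 15.8 to 43.5 CPM over the 9 Con libraries, and 387 to 525 CPM in SmoM2 BCC, 94.3 to 579 in Gnas-eKO BCC and 84.4 to 145 in PKI BCC. Dcn, the proteoglycan decorin, made up most of the sum in SmoM2 BCC, at 362 to 500.0 CPM. Dcn alone was at 56.3 to 569 CPM in Gnas-eKO BCC and 61.7 to 119 CPM in PKI BCC, beside 11.1 to 28.3 CPM over the 9 Con libraries. Of the 6 genes edgeR called 3 higher in PKI, 2 in SmoM2 and 1 in Gnas-eKO. The sum over 5 melanocyte genes was 153 to 201 CPM in PKI Con and 72.2 to 117 CPM in PKI BCC, where 4 of the 5 were called lower. In SmoM2 2 of the 5 were called lower with overlapping sums (115 to 204 CPM in Con and 109 to 159 CPM in BCC). Of 2 endothelial genes tested there, 1 was called higher. Of 3 Schwann cell genes in SmoM2, 1 was called higher and 2 had negative values, and the sums overlapped (4.23 to 6.22 CPM in Con and 4.99 to 6.42 CPM in BCC). In PKI the Schwann cell sum was 4.23 to 7.25 CPM in Con and 2.99 to 3.87 CPM in BCC. Of 2 Schwann cell genes tested there 0 were called (edgeR, 2 lower at an unadjusted p under 0.05). Of the 8 suprabasal keratinocyte genes, 4 were called lower and 1 higher in PKI and 5 lower in SmoM2, although the summed levels of Con and BCC overlapped in both. Csf3r, the neutrophil receptor gene of the leukocyte list, was at 0 in all 3 PKI Con libraries, and of the 6 fibroblast genes none was at 0 in all libraries of any group. The part of leukocytes, fibroblasts, melanocytes, Schwann cells and of the share of basal or suprabasal keratinocytes in the results on replication genes was not tested.

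Of the 4 origin licensing genes, Orc1 and Cdt1 rose in PKI, and 0 were called in SmoM2 or Gnas-eKO by edgeR, by DESeq2 or at an unadjusted p under 0.05. Orc1 (GRCm38, chromosome 4, 108579423 to 108614833, plus strand), the ATPase subunit of the origin recognition complex that varies over the cell cycle, measured 6.38, 3.85 and 5.71 CPM in Con and 9.04, 8.93, 8.81 and 9.33 CPM in BCC in PKI. All 4 BCC libraries lay above all 3 Con libraries, and the log2 fold change was 0.77 (SE 0.18, edgeR BH-adjusted p 0.0105). In SmoM2, Orc1 measured 10.5, 5.11 and 5.08 CPM in Con and 7.96, 8.16, 10.4 and 10.2 CPM in BCC, with Con replicate 1 the highest of all 7 libraries. Its log2 fold change of 0.42 there was not called (edgeR BH-adjusted p 0.268), and became 0.86 (edgeR BH-adjusted p 0.00847) without that library and 0.24 (edgeR BH-adjusted p 0.568) without Con replicate 3. Gnas-eKO values for Orc1 were 5.27, 11.4 and 6.59 CPM in Con and 7.66, 7.83, 7.33 and 5.99 CPM in BCC, and Con replicate 2 again stood above all others.

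Orc6 (chromosome 8, 85299632 to 85308278, plus strand), a subunit of the same complex, measured 27.1, 27.1 and 27.8 CPM in Con and 24.3, 30.5, 20.5 and 26.1 CPM in BCC in PKI. The 3 Con libraries were within 1 CPM of each other and inside the range of BCC, and the log2 fold change of −0.10 was the second lowest of the 45 (SE 0.13, edgeR BH-adjusted p 0.597). In SmoM2 the groups overlapped too, with 23.3, 21.8 and 22.7 CPM in Con and 19.8, 21.7, 22.1 and 23.6 CPM in BCC. Gnas-eKO gave 21.4, 25.0 and 24.4 CPM in Con and 21.5, 21.8, 32.1 and 20.4 CPM in BCC, where BCC replicate 3 stood well above the other 6 libraries.

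Cdc6 and Cdt1, which together bring the helicase to the origin, both had higher values in PKI BCC, and Cdt1 was called. Cdc6 had 4.86, 6.25 and 7.09 CPM in Con and 8.52, 7.48, 7.61 and 8.83 CPM in BCC in PKI, without overlap, and its log2 fold change of 0.43 did not pass (SE 0.17, edgeR BH-adjusted p 0.0806). In SmoM2 it had 6.43, 6.42 and 4.65 CPM in Con and 6.65, 6.52, 6.94 and 6.90 CPM in BCC, all BCC above all Con, but by little (log2 fold change 0.22, edgeR BH-adjusted p 0.334). Gnas-eKO values for Cdc6 were 5.47, 9.94 and 8.12 CPM in Con and 8.03, 5.90, 5.51 and 7.25 CPM in BCC, with the groups mixed. Cdt1 measured 20.6, 18.1 and 23.4 CPM in Con and 26.5, 26.8, 26.8 and 29.6 CPM in BCC in PKI, without overlap, and rose by 0.42 (SE 0.11, edgeR BH-adjusted p 0.0151). It missed the threshold without Con replicate 2 (0.33, edgeR BH-adjusted p 0.0621) and in the joint fit (0.41, edgeR BH-adjusted p 0.0583). Neither SmoM2 with 26.6, 24.1 and 20.9 CPM in Con and 28.9, 21.0, 26.6 and 30.1 CPM in BCC nor Gnas-eKO with 23.9, 34.2 and 21.6 CPM in Con and 20.7, 27.9, 21.5 and 21.1 CPM in BCC separated the groups. Cdt1 overlaps Galnt2l on the same strand, so its counts are uncertain.

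The 6 MCM2-7 genes, which encode the ring that unwinds DNA at the fork, had the same sign within SmoM2 and within PKI. All 6 rose in PKI, by log2 fold changes between 0.47 (Mcm4) and 0.85 (Mcm5, SE 0.10, edgeR BH-adjusted p 0.000467). In SmoM2 all 6 values were positive, from 0.12 to 0.34, and Mcm7 alone was called (0.33, SE 0.10, edgeR BH-adjusted p 0.0381). Mcm7 missed the threshold in 5 of the 7 SmoM2 fits that left out 1 library (without Con replicate 2 or 3, or BCC replicate 1, 3 or 4, edgeR BH-adjusted p 0.0623 to 0.12), and in the joint fit (edgeR BH-adjusted p 0.0666), and it overlaps Ap4m1 and Cops6. In Gnas-eKO 5 of the 6 values were negative, down to −0.46 for Mcm6 (edgeR BH-adjusted p 0.21), and none was called by DESeq2 or by edgeR within the model (1 lower at an unadjusted p under 0.05), while the joint fit called Mcm6 lower. Mcm2, given as the example, measured 61.6, 43.1 and 60.5 CPM in Con and 94.4, 78.1, 79.9 and 81.4 CPM in BCC in PKI, where every BCC library exceeded every Con library and the log2 fold change was 0.61 (SE 0.13, edgeR BH-adjusted p 0.00654). SmoM2 gave 70.8, 59.7 and 53.4 CPM in Con and 66.5, 65.4, 67.3 and 80.0 CPM in BCC, with Con replicate 1 inside the range of BCC. Gnas-eKO gave 65.9, 83.1 and 62.3 CPM in Con and 69.1, 61.5, 42.0 and 56.5 CPM in BCC, where BCC replicate 3 was the lowest of all 21 libraries.

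Among the genes that turn the loaded helicase on, Mcm10 showed the largest difference and Gins2 the smallest in PKI. Mcm10 (chromosome 2, 4989714 to 5012791, minus strand), which helps to start unwinding, measured 8.46, 5.62 and 9.07 CPM in Con and 15.2, 16.6, 15.9 and 13.3 CPM in BCC in PKI, an increase of 0.99 (SE 0.18, edgeR BH-adjusted p 0.00281). The lowest BCC library was above the highest Con library. In SmoM2 Mcm10 had 11.9, 9.52 and 8.28 CPM in Con and 8.36, 9.90, 9.68 and 10.5 CPM in BCC, and in Gnas-eKO 8.31, 16.2 and 11.2 CPM in Con and 8.08, 10.3, 9.31 and 8.80 CPM in BCC, with overlap in both and log2 fold changes of −0.03 and −0.37 that were not called (edgeR BH-adjusted p 0.901 and 0.424). Gins1, a GINS subunit, measured 6.59, 3.73 and 6.19 CPM in Con and 10.2, 8.88, 7.39 and 8.06 CPM in BCC in PKI and rose by 0.66 (SE 0.22, edgeR BH-adjusted p 0.0425). This call was lost without Con replicate 2, Con replicate 3, BCC replicate 1, BCC replicate 2 or BCC replicate 4 (edgeR BH-adjusted p 0.0555 to 0.119). Gins1 had 8.27, 6.02 and 5.30 CPM in Con and 6.33, 6.42, 8.10 and 8.06 CPM in BCC in SmoM2 and 5.52, 7.99 and 5.36 CPM in Con and 6.92, 6.22, 8.13 and 5.51 CPM in BCC in Gnas-eKO, both with overlap.

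Gins2, another subunit of the same tetramer, measured 18.5, 18.3 and 19.9 CPM in Con and 19.6, 20.8, 19.1 and 19.7 CPM in BCC in PKI. Its Con and BCC libraries interleaved, with a log2 fold change of 0.08 (SE 0.09, edgeR BH-adjusted p 0.531) that was the lowest positive value of the panel. In SmoM2 it had 19.7, 19.0 and 15.8 CPM in Con and 23.5, 19.6, 21.9 and 23.5 CPM in BCC and a log2 fold change of 0.30 (edgeR BH-adjusted p 0.0718), and in Gnas-eKO 20.3, 25.3 and 22.6 CPM in Con and 19.5, 22.7, 20.7 and 17.9 CPM in BCC. Gins2 overlaps Galnt2l and Gse1 on the other strand. Cdc45, the helicase cofactor, rose by 0.49 in PKI (SE 0.14, edgeR BH-adjusted p 0.0225), a call lost without Con replicate 1 or 2, or BCC replicate 1 or 2 (edgeR BH-adjusted p 0.0515 to 0.087). Gins3 had 0.29 in PKI and was not called (edgeR BH-adjusted p 0.273).

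Of the 6 polymerase and primase genes, Pola1, Pola2 and Pole rose in PKI, and Pold1, Pole2 and Prim1 had positive values that did not pass (edgeR BH-adjusted p 0.0536 to 0.08). Pole2 was called higher in PKI by DESeq2, by the joint fit and by limma on the authors' normalized values. It overlaps Gm49384 on the same strand, so its counts are uncertain. Without BCC replicate 3, Prim1, Pole2, Rfc4 and Rpa2 were called higher as well. Pola1, the catalytic subunit of polymerase alpha, was one of the few members that rose in SmoM2 too. It measured 28.6, 26.6 and 22.1 CPM in Con and 39.3, 43.5, 32.4 and 32.3 CPM in BCC in SmoM2, without overlap, an increase of 0.53 (SE 0.13, edgeR BH-adjusted p 0.0136). In PKI it measured 28.2, 20.3 and 26.9 CPM in Con and 33.7, 30.8, 33.5 and 35.3 CPM in BCC, an increase of 0.42 (SE 0.12, edgeR BH-adjusted p 0.0223) that was lost without Con replicate 2 (0.29, edgeR BH-adjusted p 0.0665) and in the joint fit (0.41, edgeR BH-adjusted p 0.0719). Gnas-eKO gave 28.7, 31.5 and 29.5 CPM in Con and 28.6, 37.0, 19.5 and 27.5 CPM in BCC, where BCC replicate 2 was the highest and BCC replicate 3 the lowest library. Pola1, on chromosome X, overlaps Gm14780 on the other strand.

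Pcna (chromosome 2, 132249162 to 132253314, minus strand), the sliding clamp that tethers polymerases to DNA, fell in SmoM2 and rose in PKI. SmoM2 libraries measured 129, 118 and 112 CPM in Con and 96.2, 91.5, 94.5 and 98.3 CPM in BCC, all BCC below all Con, with a log2 fold change of −0.31 (SE 0.07, edgeR BH-adjusted p 0.00583). PKI libraries measured 104, 96.6 and 105 CPM in Con and 139, 139.8, 118 and 115 CPM in BCC, all BCC above all Con, with a log2 fold change of 0.34 (SE 0.09, edgeR BH-adjusted p 0.0185). The PKI call was lost without Con replicate 1, Con replicate 2 or BCC replicate 2 (edgeR BH-adjusted p 0.0515 to 0.0808), and in a joint fit of all 21 libraries both calls missed narrowly (edgeR BH-adjusted p 0.0593 in SmoM2 and 0.0513 in PKI). In Gnas-eKO Pcna had 102, 149 and 104 CPM in Con and 114, 110.1, 133 and 95.2 CPM in BCC, spread over a similar range in both groups.

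Of the 4 clamp loader genes, Rfc2 and Rfc5 were called in PKI and Rfc2 alone in SmoM2. Rfc2 (chromosome 5, 134581366 to 134601805, plus strand) had the highest log2 fold change of all members in SmoM2, 0.55 (SE 0.12, edgeR BH-adjusted p 0.00721), from 27.6, 27.8 and 22.2 CPM in Con and 44.0, 38.1, 33.1 and 35.1 CPM in BCC. All 4 BCC libraries lay above Con. In PKI it measured 28.4, 25.4 and 32.7 CPM in Con and 41.3, 34.6, 33.1 and 35.6 CPM in BCC and rose by 0.34 (SE 0.11, edgeR BH-adjusted p 0.0465), a call lost without Con replicate 1 or 2, or BCC replicate 1, 2 or 4 (edgeR BH-adjusted p 0.0672 to 0.174), and in the joint fit (edgeR BH-adjusted p 0.0515). Gnas-eKO gave 28.5, 29.3 and 27.0 CPM in Con and 29.5, 28.3, 36.2 and 33.8 CPM in BCC, the highest member value in that model at 0.19, without a call (edgeR BH-adjusted p 0.458). Rfc5 rose by 0.26 in PKI (edgeR BH-adjusted p 0.0348), which held only without BCC replicate 3 among the 7 fits that left out 1 library and otherwise gave an edgeR BH-adjusted p of 0.0516 to 0.132. With all libraries and no filter on low counts, the Rfc5 call was lost too (edgeR BH-adjusted p 0.0598). Rfc3 and Rfc4 were not called by edgeR in any model with all libraries, and DESeq2 called Rfc4 higher in PKI. Rfc2 overlaps Lat2, Rfc4 Eif4a2 and Rfc5 Wsb2 on the other strand.

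Fen1 and Lig1, the nuclease and ligase that finish Okazaki fragments, rose in PKI by 0.49 (SE 0.08, edgeR BH-adjusted p 0.0021) and 0.67 (SE 0.11, edgeR BH-adjusted p 0.00175). Rpa2, a subunit of the single-strand binding protein, had 0.35 in PKI and was not called (edgeR BH-adjusted p 0.0692). None of the 3 was called in SmoM2 or Gnas-eKO by edgeR, nor at an unadjusted p under 0.05, nor by DESeq2, when all libraries were used.

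Of the deoxynucleotide supply genes, 2 moved in opposite directions in SmoM2 and PKI. Rrm2 (chromosome 12, 24708241 to 24714146, plus strand), the regulated subunit of ribonucleotide reductase that makes deoxynucleotides in S phase, measured 53.8, 45.5 and 46.0 CPM in Con and 113, 98.7, 82.5 and 83.2 CPM in BCC in PKI. The lowest BCC library stood well above the highest Con library, and the log2 fold change was 0.97 (SE 0.13, edgeR BH-adjusted p 0.000686). In SmoM2 the order was reversed, with 64.1, 58.5 and 55.5 CPM in Con and 44.7, 39.9, 43.2 and 40.6 CPM in BCC and a log2 fold change of −0.48 (SE 0.08, edgeR BH-adjusted p 0.00139). Gnas-eKO libraries gave 61.9, 87.7 and 61.5 CPM in Con and 40.1, 52.8, 35.4 and 35.3 CPM in BCC, again all BCC below all Con, and the log2 fold change of −0.77 was the lowest of the panel there without passing the threshold (SE 0.19, edgeR BH-adjusted p 0.0803). Without BCC replicate 2, the BCC library nearest to Con, it was −0.91 (edgeR BH-adjusted p 0.0124), in the joint fit −0.78 (edgeR BH-adjusted p 0.00153), and without Con replicate 2 it was −0.58 (edgeR BH-adjusted p 0.306).

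Tk1 (chromosome 11, 117815526 to 117826092, minus strand), the thymidine kinase of the salvage route, followed a similar order. It measured 50.0, 41.6 and 33.6 CPM in Con and 31.2, 25.0, 30.2 and 26.8 CPM in BCC in SmoM2, all BCC below all Con, a log2 fold change of −0.55 (SE 0.13, edgeR BH-adjusted p 0.013), the lowest member value there. Gnas-eKO gave 40.0, 55.8 and 43.3 CPM in Con and 23.0, 35.6, 28.6 and 23.4 CPM in BCC, also without overlap, and −0.74 (SE 0.19, edgeR BH-adjusted p 0.0882), or −0.88 without BCC replicate 2 (edgeR BH-adjusted p 0.0137), −0.75 in the joint fit (edgeR BH-adjusted p 0.00268) and −0.58 without Con replicate 2 (edgeR BH-adjusted p 0.324). PKI gave 36.4, 34.0 and 39.6 CPM in Con and 46.6, 44.9, 41.2 and 45.3 CPM in BCC, all BCC above all Con, a rise of 0.29 (SE 0.09, edgeR BH-adjusted p 0.0291). The PKI call was lost without Con replicate 1 or 2, or BCC replicate 1, 2 or 4 (edgeR BH-adjusted p 0.0533 to 0.115), and in the joint fit (0.28, edgeR BH-adjusted p 0.185). Tk1 overlaps Afmid and Gm20708 on the other strand.

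The other 3 genes of the group rose in PKI as well, Rrm1 by 0.61 (SE 0.07, edgeR BH-adjusted p 0.000451), the thymidylate synthase Tyms by 0.60 (SE 0.10, edgeR BH-adjusted p 0.00243) and the dUTPase Dut by 0.57 (SE 0.12, edgeR BH-adjusted p 0.00623). None of these 3 was called in the other models by the fit within the model, where Rrm1 had −0.11 in SmoM2 and −0.43 in Gnas-eKO (edgeR BH-adjusted p 0.417 and 0.225). A joint fit of all 21 libraries called Rrm1 lower in Gnas-eKO. Rrm1 overlaps Gm45399 on the same strand, so its counts are uncertain.

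In the group for chromatin, the histone chaperone genes Chaf1a and Chaf1b and the maintenance genes Uhrf1 and Hells rose in PKI, by 0.55 to 0.71, with the highest value for Uhrf1 (SE 0.10, edgeR BH-adjusted p 0.000803). Slbp, which binds the stem-loop of histone mRNAs, had 0.19 and was not called (edgeR BH-adjusted p 0.223). Cdca7 (chromosome 2, 72476159 to 72486893, plus strand), a cofactor of Hells, went the other way. It measured 82.9, 78.4 and 117 CPM in Con and 69.8, 72.2, 73.7 and 69.8 CPM in BCC in PKI, all BCC below all Con, and was the 1 member with no overlap in that direction. Its log2 fold change was −0.37 (SE 0.13, edgeR BH-adjusted p 0.0579), not past the threshold, and −0.45 and −0.48 without Con replicate 1 or Con replicate 2, which passed (edgeR BH-adjusted p 0.0464 and 0.0374). Without Con replicate 3, the highest library, it was −0.16 (edgeR BH-adjusted p 0.175).

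Cdca7 measured 125, 89.7 and 72.0 CPM in Con and 60.8, 61.0, 65.9 and 77.5 CPM in BCC in SmoM2, where Con replicate 3 lay inside the range of BCC, and 76.4, 104 and 109.6 CPM in Con and 62.5, 68.6, 52.8 and 59.9 CPM in BCC in Gnas-eKO, without overlap. Its log2 fold changes of −0.51 and −0.65 did not pass (edgeR BH-adjusted p 0.0666 and 0.0703), but passed without SmoM2 Con replicate 3 (−0.68, edgeR BH-adjusted p 0.0113) and without Gnas-eKO BCC replicate 2 (−0.71, edgeR BH-adjusted p 0.0282). In SmoM2 it was −0.27 without Con replicate 1 (edgeR BH-adjusted p 0.138), and in Gnas-eKO the other 6 fits that left out 1 library gave −0.80 to −0.56, none of them called (edgeR). The joint fit called it lower in both (edgeR BH-adjusted p 0.027 and 0.0113). The DESeq2 Wald test called Cdca7 lower in all 3 models, with adjusted p of 0.0131, 0.00524 and 0.0339.

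The G1/S regulators differed from each other. Ccne1 (chromosome 7, 38097984 to 38107534, minus strand), cyclin E1, which activates Cdk2 at the start of S phase, had the highest log2 fold change of the panel in PKI. It measured 8.11, 4.48 and 5.17 CPM in Con and 17.5, 16.2, 11.0 and 12.6 CPM in BCC, with the lowest BCC library above the highest Con library, and the log2 fold change was 1.28 (SE 0.24, edgeR BH-adjusted p 0.00376), a 2.43-fold rise. SmoM2 gave 6.61, 3.84 and 5.25 CPM in Con and 6.06, 6.13, 6.94 and 8.16 CPM in BCC and Gnas-eKO 5.57, 8.32 and 5.88 CPM in Con and 6.00, 7.02, 5.67 and 5.75 CPM in BCC, both with overlap, and neither was called (log2 fold changes 0.39 and −0.10, edgeR BH-adjusted p 0.191 and 0.84).

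Ccne2, cyclin E2, did not share this pattern in PKI, with 10.3, 13.0 and 13.9 CPM in Con and 13.6, 14.7, 15.4 and 13.1 CPM in BCC, overlapping groups and a log2 fold change of 0.20 (SE 0.14, edgeR BH-adjusted p 0.28). In SmoM2 it had 17.2, 12.7 and 11.6 CPM in Con and 10.2, 9.70, 11.3 and 11.4 CPM in BCC, all BCC just below all Con and not called (−0.36, edgeR BH-adjusted p 0.101). Gnas-eKO gave 14.2, 20.7 and 21.5 CPM in Con and 10.8, 13.1, 18.8 and 11.7 CPM in BCC, with BCC replicate 3 inside the range of Con. E2f1, a transcription factor of the S phase programme, measured 20.5, 15.0 and 18.5 CPM in Con and 22.6, 24.9, 20.4 and 21.7 CPM in BCC in PKI, a log2 fold change of 0.33 that was not called (SE 0.13, edgeR BH-adjusted p 0.0727). It measured 25.8, 19.7 and 18.0 CPM in Con and 25.7, 20.3, 21.8 and 26.7 CPM in BCC in SmoM2, with overlap, and 24.3, 34.2 and 23.8 CPM in Con and 19.6, 22.7, 14.9 and 20.1 CPM in BCC in Gnas-eKO, all BCC below all Con, where −0.49 did not pass (SE 0.19, edgeR BH-adjusted p 0.2) but −0.50 in the joint fit did (edgeR BH-adjusted p 0.0435). Without Con replicate 2 it was −0.31 (edgeR BH-adjusted p 0.574). The fork protection genes Tipin and Clspn rose in PKI by 0.48 (SE 0.11, edgeR BH-adjusted p 0.011, lost without Con replicate 2 at 0.0524) and 0.78 (SE 0.09, edgeR BH-adjusted p 0.000498).

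**Figure D3:**
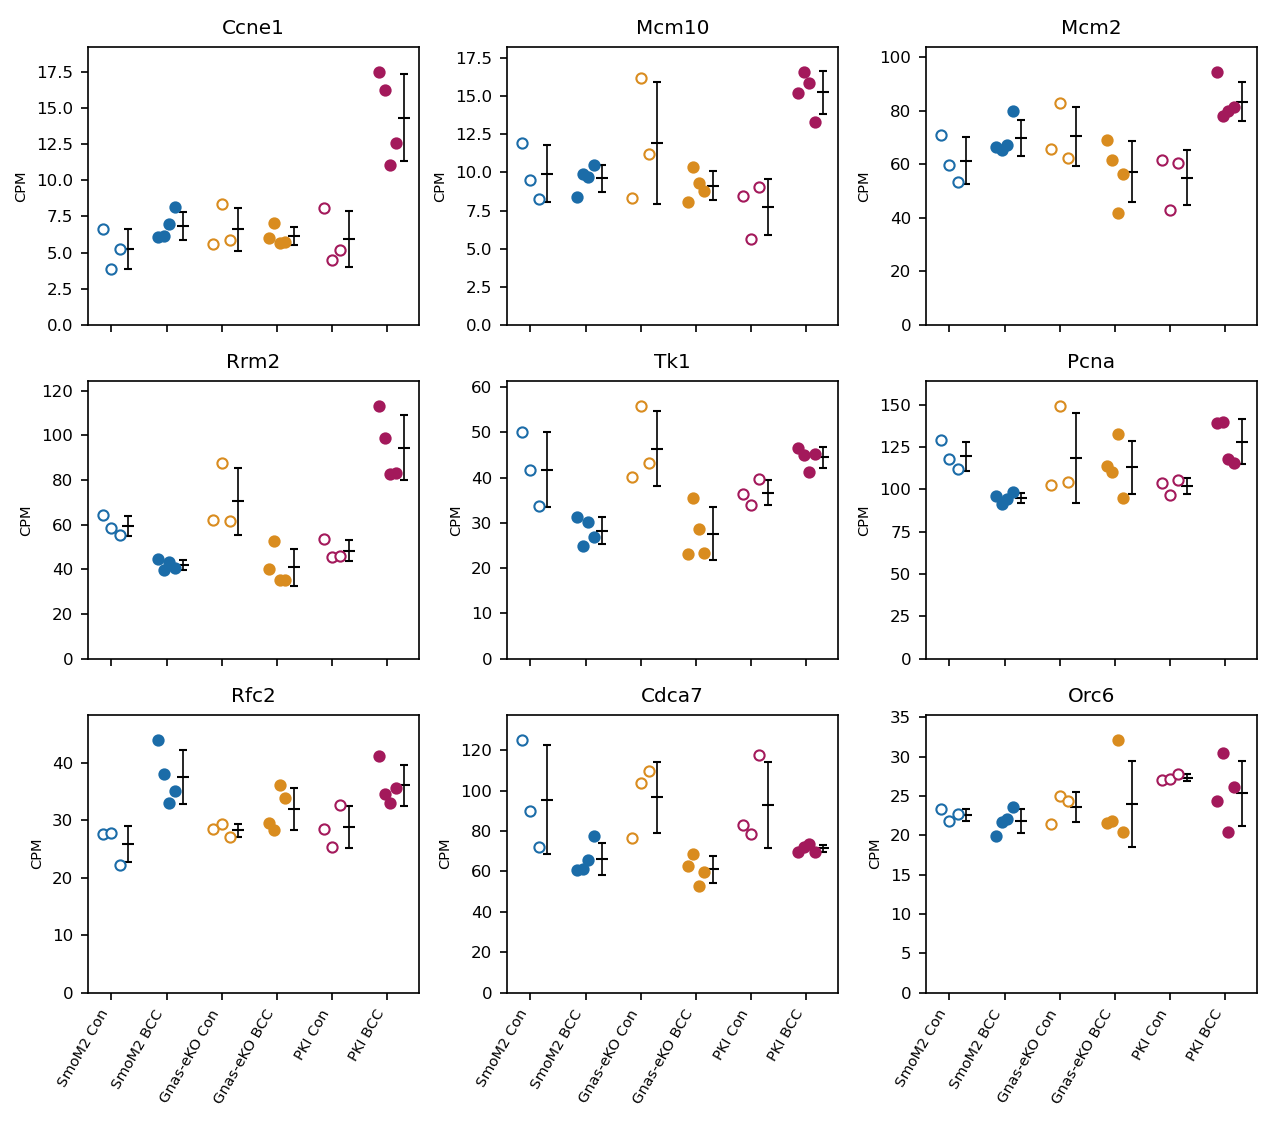
CPM of 9 DNA replication genes in every library (open circles Con, filled circles BCC, bar group mean ± SD, axes from 0). Ccne1, Mcm10, Mcm2 and Rrm2 are above their own Con in PKI BCC, although Gnas-eKO Con replicate 2 lies inside the PKI BCC range for Mcm10, Mcm2 and Rrm2. Rrm2, Tk1 and Pcna are below Con in SmoM2 BCC, and Cdca7 is below Con in Gnas-eKO and PKI BCC. Orc6 is between 19.8 and 32.1 CPM over the 21 libraries, with Gnas-eKO BCC replicate 3 the highest and PKI BCC replicate 2 next at 30.5.

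**Figure D4:**
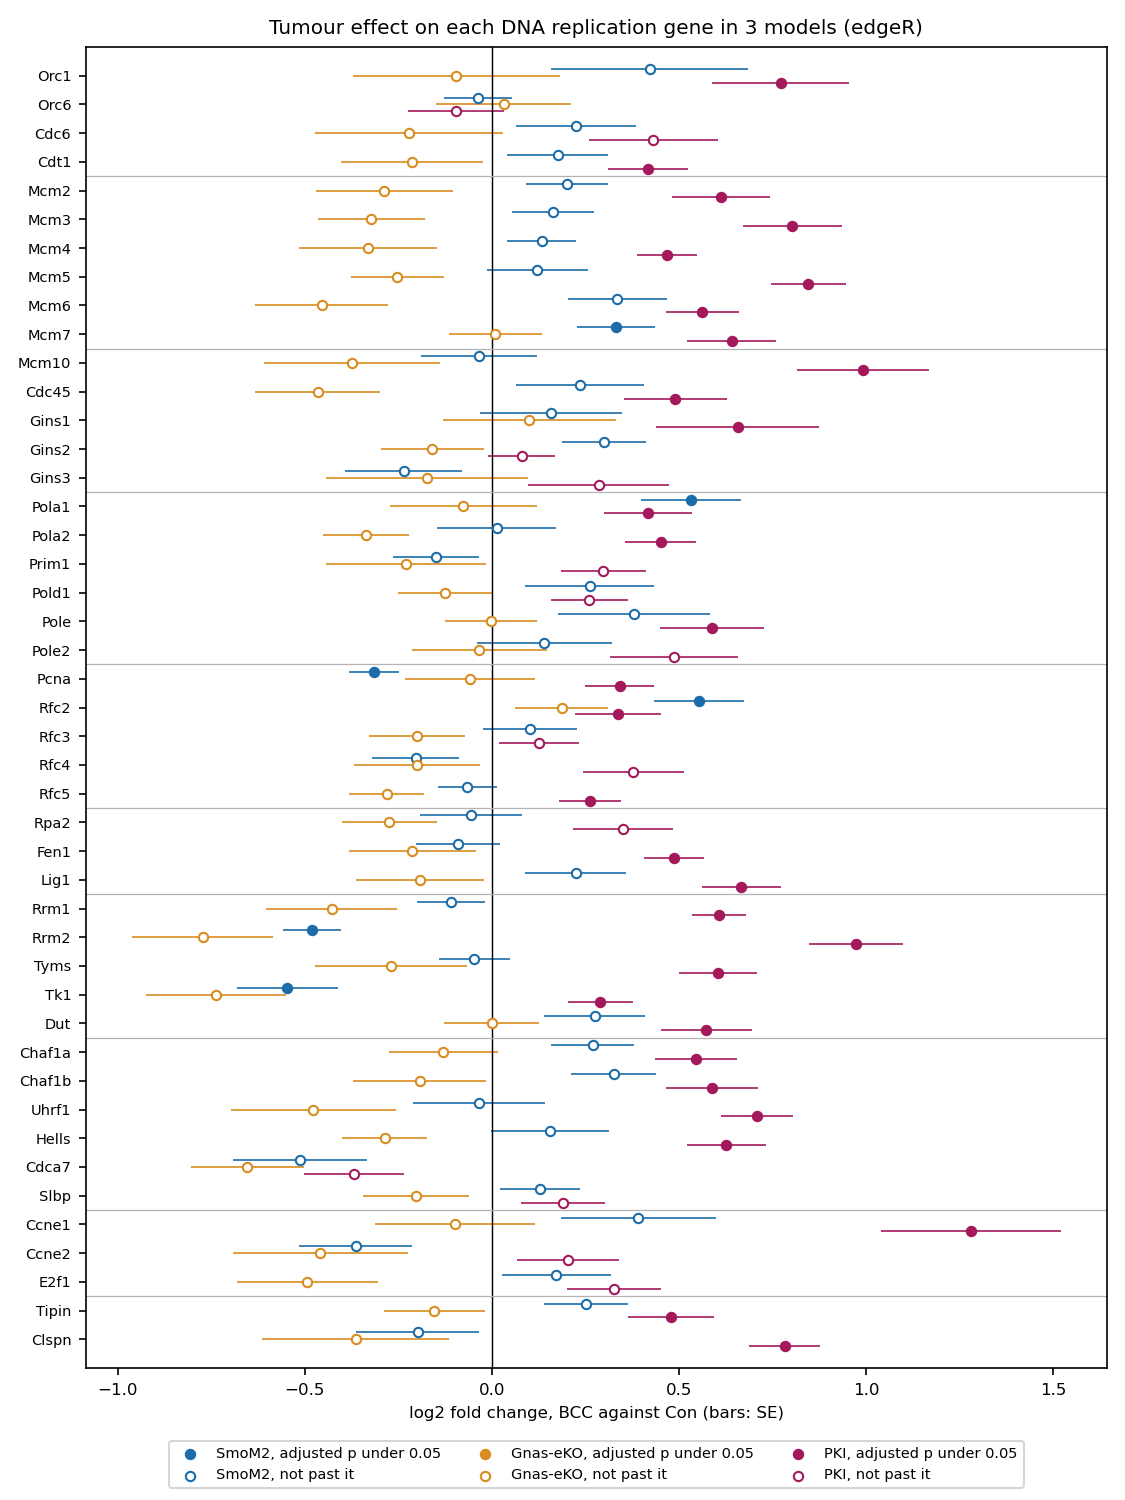
Log2 fold change of BCC against Con with its SE for each of the 45 DNA replication genes in the 3 models, with filled points past an edgeR BH-adjusted p of 0.05 and open points not past it. The PKI points lie to the right of 0 for 43 genes and are filled for 31, all Gnas-eKO points are open, and 6 SmoM2 points are filled.

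The models were then compared directly, by testing the difference between their tumour effects in the 14 libraries of a pair. Between PKI and SmoM2, 13 members had a higher effect in PKI and 0 a lower one, where 12.6% and 12.3% of 17261 genes were called higher and lower (for the members, 22 higher and 0 lower at an unadjusted p under 0.05, beside 18.6% and 18.8% of all genes, and 16 higher and 0 lower by DESeq2, beside 14.3% and 14.0%). The 3 largest differences were those of Rrm2 (1.46, SE 0.15, edgeR BH-adjusted p 2.8e-05), Mcm10 (1.03, SE 0.24, edgeR BH-adjusted p 0.00636) and Clspn (0.98, SE 0.20, edgeR BH-adjusted p 0.00292). Tk1 (0.84), Uhrf1, Mcm5, Rrm1, Pcna (0.66), Tyms, Mcm3, Rfc4, Fen1 and Rfc5 made up the rest. Of the 14 fits that left out 1 library, Rfc5 lost its call in 8, Rfc4 in 4, and Mcm3 (without SmoM2 Con replicate 1) and Uhrf1 (without PKI Con replicate 2) in 1 each. Uhrf1 was also not called in the joint fit, nor Rfc5 with no filter on low counts. The lowest differences were those of Gins2 and Rfc2, −0.22 each, and Pola1, −0.11, with edgeR BH-adjusted p of 0.259, 0.388 and 0.696. The members called in opposite directions in SmoM2 and PKI, Rrm2, Tk1 and Pcna, thus also differed between the models, whereas Rfc2 and Pola1, called higher in both, were not shown to differ.

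Between PKI and Gnas-eKO, 24 members had a higher effect in PKI and 0 a lower one, where 4.49% and 4.57% of 17254 genes were called (for the members, 34 higher and 0 lower at an unadjusted p under 0.05, beside 12.0% and 13.3% of all genes, and 27 higher and 0 lower by DESeq2, beside 6.86% and 7.0%). Rrm2 (1.75, SE 0.25, edgeR BH-adjusted p 0.0024), Ccne1 (1.39, SE 0.33, edgeR BH-adjusted p 0.0206) and Mcm10 (1.37, SE 0.30, edgeR BH-adjusted p 0.0154) led, and all 6 MCM2-7 genes were among the 24. Orc6 (−0.12), Rfc2 (0.15) and Gins2 (0.24) were lowest, with edgeR BH-adjusted p of 0.783, 0.612 and 0.356. The count was 27 without Gnas-eKO BCC replicate 2, beside 5.76% of all genes called higher. It was 12 without Gnas-eKO Con replicate 2 or without PKI Con replicate 2 (beside 1.94% and 2.19%), 14 without PKI Con replicate 3 (2.23%), and 15 without Gnas-eKO BCC replicate 4, PKI BCC replicate 1 or PKI BCC replicate 2 (3.21%, 2.82% and 2.52%). Of the MCM2-7 genes, Mcm2, Mcm4 and Mcm7 lost their calls in 7, 8 and 9 of the 14 fits that left out 1 library, and Mcm3, Mcm5 and Mcm6 in 0. Ccne1 was not called without Gnas-eKO Con replicate 2, PKI Con replicate 2 or PKI Con replicate 3 (edgeR BH-adjusted p 0.0567 to 0.0666).

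Gnas-eKO and SmoM2 were not shown to differ for any member, with 0 called by edgeR or DESeq2, where 0.0758% and 0.0991% of 17151 genes were called higher and lower. At an unadjusted p under 0.05, 0 members had a higher and 8 a lower effect in Gnas-eKO (edgeR), beside 4.75% and 3.99% of all genes. The lowest values were those of Mcm6 (−0.78, SE 0.24), Cdc45 (−0.70, SE 0.24) and E2f1 (−0.66, SE 0.25), with edgeR BH-adjusted p of 0.299, 0.361 and 0.441. The highest were those of Pcna (0.26), Orc6 (0.07) and Gins3 (0.07), with edgeR BH-adjusted p of 0.732, 0.939 and 0.964. A batch effect that changes the size of a tumour effect would not cancel in these comparisons.

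Other genes of the replication pathway also rose in PKI. Of 45 other replication genes, 22 rose and 1 fell in PKI, 1 rose and 2 fell in SmoM2, and 0 were called in Gnas-eKO (edgeR, 0 higher and 9 lower at an unadjusted p under 0.05). Of all genes, 18.7% and 15.8% were called higher and lower in PKI and 16.2% and 13.5% in SmoM2, and 7.34% were lower at the unadjusted p in Gnas-eKO. In PKI the highest were Dbf4, the activator of the Cdc7 kinase that fires origins (1.02, edgeR BH-adjusted p 0.000291), Gmnn, the inhibitor of Cdt1 (0.96, edgeR BH-adjusted p 0.00117), and Ticrr, an origin firing factor (0.91, edgeR BH-adjusted p 0.000422). Rrm2b, the ribonucleotide reductase subunit used outside S phase, fell by 0.62 in PKI (edgeR BH-adjusted p 0.00799), while its counterpart Rrm2 rose. In SmoM2 Rnaseh2a rose by 0.39 (edgeR BH-adjusted p 0.00688), Recql4 fell by 0.97 (edgeR BH-adjusted p 0.00861) and the histone chaperone gene Asf1b fell by 0.44 (edgeR BH-adjusted p 0.0125). The median over the 45 was 0.29 in PKI, against 0.49 for the members.

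Among 23 regulators of E2F and of cell cycle entry, 12 rose and 2 fell in PKI, beside 18.7% and 15.8% of all genes. Mybl2 (0.96, edgeR BH-adjusted p 0.00053), Ccna2 (0.84, edgeR BH-adjusted p 0.000216) and the repressor E2f8 (0.80, edgeR BH-adjusted p 0.00125) rose most, and the inhibitor Cdkn1b, which restrains cyclin E and Cdk2, fell by 0.41 (edgeR BH-adjusted p 0.00332) and the pocket protein gene Rbl2 by 0.37 (edgeR BH-adjusted p 0.00421). In SmoM2 4 of the 23 rose and 5 fell, beside 16.2% and 13.5% of all genes. Cdkn1c (1.04, edgeR BH-adjusted p 0.0301), E2f5 (0.96, edgeR BH-adjusted p 0.00201) and Cdc25a (0.62, edgeR BH-adjusted p 0.00503) rose most, and E2f2 fell by 0.81 (edgeR BH-adjusted p 0.00242), Cdkn1a by 0.78 (edgeR BH-adjusted p 0.000718) and Fbxw7, which targets cyclin E for degradation, by 0.64 (edgeR BH-adjusted p 0.000478). In Gnas-eKO 0 were called (edgeR, with 2 higher and 9 lower at an unadjusted p under 0.05, beside 12.2% and 7.34% of all genes).

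Mitosis genes, which act after replication is complete, rose in PKI as a whole list. All 25 rose in PKI, beside 18.7% of all genes, from 0.37 for Anln to 1.13 for Aurka (edgeR BH-adjusted p 0.000365), with Plk1 at 1.09 and Cdc20 at 1.03. In SmoM2 0 rose and 2 fell, Anln by 0.53 and Kif23 by 0.29 (edgeR BH-adjusted p 0.0394 and 0.0357), beside 13.5% of all genes called lower, and in Gnas-eKO 0 were called (edgeR, with 0 higher and 7 lower at an unadjusted p under 0.05, beside 7.34% of all genes lower). As a mean log2 CPM, the mitosis list differed between BCC and Con by 0.81 in PKI, −0.42 in Gnas-eKO and −0.21 in SmoM2, or −0.24 in Gnas-eKO without Con replicate 2 and −0.095 in SmoM2 without Con replicate 1. The mean of the replication genes minus that of the mitosis genes had a mean of −0.39 ± 0.11 (SD, n = 3) in Con and −0.10 ± 0.16 (SD, n = 4) in BCC in SmoM2, and of −0.15 ± 0.12 and 0.03 ± 0.14 in Gnas-eKO. The groups overlapped in both models, in SmoM2 only narrowly (highest Con −0.2889, lowest BCC −0.2892). The SmoM2 difference of 0.29 ran from 0.23 to 0.35 with 1 library left out, and the Gnas-eKO difference of 0.17 became 0.11 without Con replicate 2. In PKI the mean of replication minus mitosis genes was −0.41 ± 0.14 (SD, n = 3) in Con and −0.74 ± 0.04 (SD, n = 4) in BCC, all BCC below all Con.

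Promoters of the members were read to see which known cell cycle motifs their DNA holds. RefSeq promoters of build GRCm38.p6, 250 bases before to 50 after a gene's start, were given for 38 of the 45 members. Every motif was searched on both strands. The E2F motif was taken as the 8 letters TTTCCCGC, TTTCGCGC, TTTGCCGC or TTTGGCGC, the CCAAT box, bound by NF-Y, as CCAAT, and the CHR, the element of mitotic genes, as TTTGAA. An E2F match was held by 17 of the 38 members (44.7%), by 22.9% of 35 other replication genes and by 4.55% of 22 mitosis genes, counting only genes with a promoter. It was held by 4.58% of the 10675 with a promoter among the 15640 genes tested in all 3 models, and by 2.6% of all 27025 genes with a promoter. A CCAAT match was held by 55.3% of members and 42.8% of tested genes, and by 81.8% of mitosis genes. The CHR was held by 10.5% of members, 14.6% of tested genes and 77.3% of mitosis genes. The G and C content was 60.1% in the member promoters and 60.5% in those of tested genes. A match is a run of letters, not a measured binding site. Of the 17 members with an E2F match 11 were called higher in PKI, and of the 21 without one 15 were.

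The 200 bases that end at the RefSeq start are shown for the members with the 2 highest and 2 lowest PKI values, for Mcm2 and Pcna as examples of the helicase and the clamp, and for Mcm6, added because it held the most E2F matches. They are written 5′ to 3′ on the gene's strand, with E2F and CCAAT matches in capitals.
Ccne1 (chr7:38107491-38107690, minus strand): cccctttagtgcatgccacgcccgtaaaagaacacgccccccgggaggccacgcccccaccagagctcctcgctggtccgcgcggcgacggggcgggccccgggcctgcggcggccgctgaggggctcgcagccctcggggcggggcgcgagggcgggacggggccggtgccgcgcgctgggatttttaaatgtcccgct
Mcm10 (chr2:5012792-5012991, minus strand): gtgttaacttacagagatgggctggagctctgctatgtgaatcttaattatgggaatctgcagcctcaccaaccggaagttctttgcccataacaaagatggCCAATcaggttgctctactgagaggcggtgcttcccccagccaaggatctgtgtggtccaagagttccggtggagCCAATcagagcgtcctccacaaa
Mcm2 (chr6:88898781-88898980, minus strand): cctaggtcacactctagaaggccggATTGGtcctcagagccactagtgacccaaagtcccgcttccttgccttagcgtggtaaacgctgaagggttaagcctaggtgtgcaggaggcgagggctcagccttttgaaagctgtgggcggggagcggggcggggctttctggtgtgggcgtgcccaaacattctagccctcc
Mcm6 (chr1:128359706-128359905, minus strand): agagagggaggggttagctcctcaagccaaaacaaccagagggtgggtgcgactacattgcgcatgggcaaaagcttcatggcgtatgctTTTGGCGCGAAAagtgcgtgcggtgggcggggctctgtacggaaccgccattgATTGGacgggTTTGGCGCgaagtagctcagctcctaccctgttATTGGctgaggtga
Pcna (chr2:132253181-132253380, minus strand): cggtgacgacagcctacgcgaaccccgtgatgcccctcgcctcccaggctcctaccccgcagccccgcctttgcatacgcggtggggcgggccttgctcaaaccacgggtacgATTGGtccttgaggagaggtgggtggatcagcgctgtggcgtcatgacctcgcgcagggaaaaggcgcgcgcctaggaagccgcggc
Cdca7 (chr2:72476019-72476218, plus strand): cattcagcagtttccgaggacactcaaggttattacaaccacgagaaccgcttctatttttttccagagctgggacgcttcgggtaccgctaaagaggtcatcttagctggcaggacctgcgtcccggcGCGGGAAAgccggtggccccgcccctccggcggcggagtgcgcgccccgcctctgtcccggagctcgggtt
Orc6 (chr8:85299432-85299631, plus strand): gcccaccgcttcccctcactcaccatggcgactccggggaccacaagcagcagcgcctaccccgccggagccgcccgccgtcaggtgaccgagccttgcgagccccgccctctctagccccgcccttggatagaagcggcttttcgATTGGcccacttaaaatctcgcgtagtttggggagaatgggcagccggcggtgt
Ccne1 and Mcm10, the highest in PKI, hold none of the E2F letters in these bases, while Cdca7, the lowest, holds 1 match. Mcm6 holds 3, of which 2 overlap each other, and 2 CCAAT matches. Orc6, Mcm2 and Pcna each hold 1 CCAAT match and Mcm10 holds 2. Over all members, 1 E2F match overlaps a CCAAT or CHR match.

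**Figure D5:**
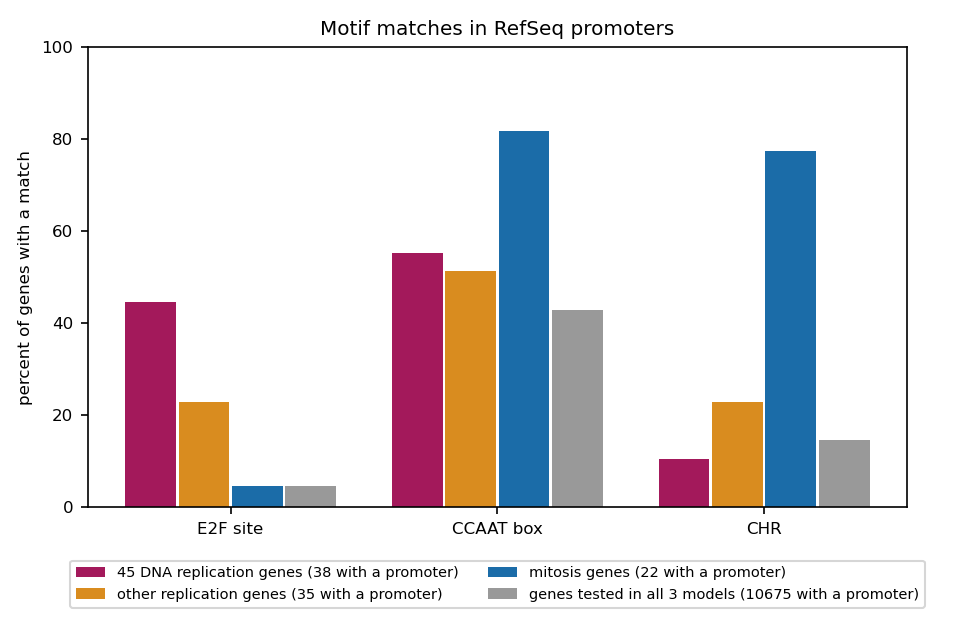
Percent of genes whose RefSeq promoter holds an E2F site, a CCAAT box or a CHR, for the 45 DNA replication genes (38 with a promoter), 45 other replication genes, 25 mitosis genes and the genes tested in all 3 models. The E2F bar is tallest for the DNA replication genes at 44.7%, and the CHR bar for the mitosis genes at 77.3%.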

How the data were processed

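Polyadenylated RNA of 21 libraries was prepared with a stranded ligation kit, per the labels' protocols. Per the submitters' processing notes, bcl2fastq 2.20, cutadapt 1.18, STAR 2.7.0f, Partek and genome build mm10 (GRCm38) were used. Their roles, the counting step and its use of strand are not given in the sources used here. The authors deposited estimated counts per gene without normalization, 32.3% of them not whole (tolerance 1e-06), for genes with at least 10 counts in all. They also deposited a TMM-normalized signal per gene, used here only for alternatives. Of the columns, 0 went unused for lack of a matching sample.

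Counts were rounded, filtered by filterByExpr, scaled by TMM and tested with the robust quasi-likelihood test of edgeR 4.0.16 (R 4.3.3), with Benjamini-Hochberg adjustment over all genes tested. Genes under an adjusted p of 0.05 were called. The SE is the absolute log2 fold change over the square root of F. Mean log2 CPM used a prior count of 2 and TMM over the 21 libraries. Libraries of a group all differed by more than counting noise (ratio of chi-square to its degrees of freedom at least 8.93). DESeq2 1.42.0, limma 3.58.1, another scaling, no filter, a joint fit, a replicate block and leaving out each library were alternatives. The procedure was tested on simulated data. Gene positions were those deposited, identical to GENCODE M21 for 45 of 45 members.

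The members, lists, naming rule and tests were chosen with earlier results of these data known. Values in every library are given for the 3 highest and 3 lowest members per model and for Mcm2, Pcna, Cdc6, Cdt1, Ccne1, Ccne2 and E2f1. For differences between models the 3 highest and 3 lowest members are named, and for other lists up to 3 called genes per direction. Mcm6 promoter bases were added after its matches were seen. Of the members, 18 overlap another annotated gene, 3 of them on the same strand (Cdt1, Pole2 and Rrm1), so their counts are uncertain.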

Additional observations from a re-analysis of the deposited data

Results flagged for a closer look

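In 54 comparisons within BCC groups of 4 libraries (17 members and the mean, in 3 models), 1 library stood apart from the other 3 by Dixon's test in 4 cases, where chance gives about 1 in 20. Orc6 was 32.1 CPM in Gnas-eKO BCC replicate 3, against 20.4 to 21.8 in the others. Cdt1 was 27.9 CPM in Gnas-eKO BCC replicate 2, against 20.7 to 21.5. In PKI BCC replicate 4 Cdt1 was 29.6 CPM, against 26.5 to 26.8. Mcm2 was 80.0 CPM in SmoM2 BCC replicate 4, against 65.4 to 67.3. The tumour effect differed between PKI and SmoM2 for 13 members by the edgeR test of the difference itself, with the largest differences of log2 fold changes for Rrm2 (1.46), Mcm10 (1.03) and Clspn (0.98). Between PKI and Gnas-eKO it differed for 24 members, led by Rrm2 (1.75), Ccne1 (1.39) and Mcm10 (1.37).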

How the results depend on the processing

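With all libraries kept, 27 to 33 members were called higher in PKI over the alternatives, and with 1 library left out 22 to 35. Those called lower in PKI numbered 0 to 1 with 1 library left out and 1 with DESeq2. In SmoM2, 2 to 3 were called higher and 3 to 4 lower with all libraries, and 2 to 11 and 3 to 4 with 1 left out. In Gnas-eKO 0 were called higher in any alternative, and 0 to 3 lower with 1 library left out (3 without BCC replicate 2), 3 with DESeq2 and 8 in the joint fit. Of all genes, 4.43%, 2.57% and 6.05% were called lower in the last 3 settings, against 0.165% as reported. Members with a higher effect in PKI numbered 12 to 16 against SmoM2 (10 to 19 with 1 library left out) and 17 to 27 against Gnas-eKO (12 to 28), with 0 lower in every alternative run. Between Gnas-eKO and SmoM2 0 were called either way in any of them. The mean log2 CPM difference ranged from 0.391 to 0.523 in PKI, −0.335 to −0.132 in Gnas-eKO and −0.022 to 0.205 in SmoM2 with 1 library left out, and for PKI it was 0.325 as a median over the members. The causes were not tested.

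Same-numbered libraries deviated together with mean correlations of 0.11 in PKI, 0.085 in Gnas-eKO and −0.096 in SmoM2, so the numbers were not taken to pair them. With the replicate block, 2 members were called higher and 3 lower in SmoM2, 0 in Gnas-eKO and 29 higher in PKI. Mcm7 in SmoM2 and Rfc2, Rfc5 and Tk1 in PKI were not called with it (edgeR BH-adjusted p 0.0992, 0.0578, 0.0894 and 0.0679), and Rpa2 in PKI was. There were 16 higher effects in PKI against SmoM2 (without Rfc4 and Rfc5, with Mcm2, Mcm4, Pola2, Lig1 and Ccne1) and 17 against Gnas-eKO (without Mcm4, Mcm7, Cdc45, Rfc5, Fen1, E2f1 and Tipin), and the mean differences were 0.492 in PKI, −0.24 in Gnas-eKO and 0.037 in SmoM2.

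Some uncalled values near 0 changed sign. In Gnas-eKO, Orc6 was −0.0017 with limma, −0.037 without Con replicate 1 and −0.14 without BCC replicate 3. Over the fits that left out 1 library, Cdt1 ran from −0.35 to 0.0086 (positive without Con replicate 2), Gins1 from −0.0077 to 0.31 (negative without Con replicate 3 or BCC replicate 3), Ccne1 from −0.21 to 0.10 (positive without Con replicate 2) and Pcna from −0.16 to 0.14 (positive without Con replicate 2 or BCC replicate 4). Pcna was 0.035 with the replicate block. For Gnas-eKO against SmoM2, Orc6 was −0.099 without Gnas-eKO BCC replicate 3, and Gins3 ran from −0.11 to 0.43 (negative without Gnas-eKO Con replicate 1 or 3). For PKI against Gnas-eKO, Orc6 ran from −0.23 to 0.046 (positive without Gnas-eKO BCC replicate 3). Members near 4 to 17 CPM, such as Orc1, Gins1, Cdc6 and Ccne1, rest on fewer counts than the others.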

Other observations

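The members varied together within groups as well as between them. Over the 990 pairs of members the median Pearson correlation of log2 CPM was 0.54 over the 21 libraries, with 53 negative pairs, and 0.54 after each group's mean was subtracted, with 44 negative pairs. These points share libraries and depth, and the values are descriptions. Mcm3 (0.96) and Mcm5 (0.95) were most like the mean of the other members and Orc6 (−0.03) and Cdca7 (0.21) least, and within groups Cdca7 reached 0.74. Outside the list, the genes tested in all 3 models whose log2 CPM was most like the mean of the members over the 21 libraries were Gm5648 (0.92), Brip1 (0.91), Fignl1 (0.90), Tfdp1 (0.90), Timeless, Dck, Pmf1, Dna2, Fanca and Cenph (0.85). With group means subtracted the 3 most alike were Brip1 (0.92), Fignl1 (0.92) and Mxd3 (0.89).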
